A study of Homo sapiens with 2 samples.

Results

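Genes of MHC class I peptide loading and of the immunoproteasome were examined in L-428 cells, a Hodgkin's lymphoma (HL) cell line, after knock-down of DUSP5. The members are 10 genes, namely the non-classical heavy chains HLA-E and HLA-F, the light chain B2M, the peptide transporter subunits TAP1 and TAP2, the loading chaperone TAPBP, the trimming peptidase ERAP1 and the inducible proteasome subunits PSMB8, PSMB9 and PSMB10. Every probe set that carried 1 of these symbols and no other was taken, which gave 22 of the 19065 probe sets with 1 symbol, or 10 of 11963 genes. No probe set carried a member together with a second symbol. RNA was hybridised to 2 Affymetrix HG_133A arrays. For the first, cells had received pcDNA6.2-GW/EmGFP-miR-neg as control, called empty in the treatment notes, and for the other pcDNA6.2-GW/EmGFP-miR-DUSP5, which expresses an artificial microRNA against DUSP5. Both vectors encode a green fluorescent protein, so its presence does not distinguish the groups. The time between transfection and RNA extraction and any sorting of transfected cells are not given in the sources used here. Each condition has 1 array, so the differences have no replicate check, no p-value was computed, and an effect of the knock-down, of the vector and of the single culture cannot be told apart.

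MHC class I molecules show peptides from inside the cell to T cells and natural killer cells. Proteasomes cut proteins into peptides, the TAP1/TAP2 transporter carries these into the endoplasmic reticulum, tapasin (TAPBP) and general chaperones help to load them, and ERAP1 trims them to size. Interferon and other inflammatory signals replace the catalytic proteasome subunits PSMB5, PSMB6 and PSMB7 by PSMB8, PSMB9 and PSMB10, which changes the peptides that are made. Reed-Sternberg cells of HL often show little MHC class I on their surface.

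The promoters of these genes are known for the interferon-stimulated response element (ISRE), a repeat of GAAA. Promoter windows from RefSeq (GRCh38.p14), from 250 bases before to 50 bases after each annotated start, were found for 9 of the 10 genes, in 12 windows. They were searched on both strands for GAAA, any 2 bases and a second GAAA. Of these 9 genes, 8 had a match in 1 window, and PSMB9 had none. PSMB8, ERAP1 and TAP1 had windows of several starts. Matches lay only at the more downstream start of PSMB8 and ERAP1 and only at the more upstream start of TAP1. Over all 27305 symbols with a promoter window 4.38% had a match, and over all 35116 windows 3.57%. In B2M, TAP1 and TAPBP a pair of matches overlapped. A second motif, TTCNNNGAA (the gamma-activated site, GAS), was found in windows of PSMB8 and TAP1, against 9.38% of all symbols. In TAP1 it lay in the window without the pair. The stretches around the ISRE-like matches are given below. Capitals mark the matches, each line runs 5′ to 3′ on the strand of the gene, and the stretches of PSMB8 and ERAP1 include the first 6 and 12 transcribed bases.
TAP1 (chr6:32853798-32853863, minus strand): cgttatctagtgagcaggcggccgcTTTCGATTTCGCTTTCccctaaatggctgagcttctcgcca
TAP2 (chr6:32838763-32838822, minus strand): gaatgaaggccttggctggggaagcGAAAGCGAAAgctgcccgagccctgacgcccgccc
TAPBP (chr6:33314079-33314123, minus strand): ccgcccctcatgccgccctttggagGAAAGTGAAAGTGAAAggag
B2M (chr15:44711348-44711413, plus strand): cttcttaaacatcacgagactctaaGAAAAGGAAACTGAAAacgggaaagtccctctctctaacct
HLA-F (chr6:29723253-29723312, plus strand): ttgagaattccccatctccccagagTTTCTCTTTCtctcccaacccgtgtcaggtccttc
PSMB8 (chr6:32844042-32844076, minus strand): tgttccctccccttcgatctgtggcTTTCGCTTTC
PSMB10 (chr16:67936851-67936896, minus strand): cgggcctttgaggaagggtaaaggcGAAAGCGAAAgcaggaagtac
ERAP1 (chr5:96807934-96807968, minus strand): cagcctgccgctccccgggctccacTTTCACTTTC

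A match describes letters only and shows neither a binding site nor a cause. In the annotation of this assembly TAP2, PSMB8, TAP1 and PSMB9 are successive protein-coding genes on chromosome 6 in this order, from position 32821831 to 32859851, with TAPBP, HLA-E and HLA-F on the same chromosome. TAP1 and PSMB9 point away from each other, with starts 488 bases apart. The 2 overlapping matches of TAP1 lie in this interval, 119 to 134 bases before the start of TAP1 and 354 to 369 bases before that of PSMB9, and therefore outside the PSMB9 window.

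**Figure D1:**
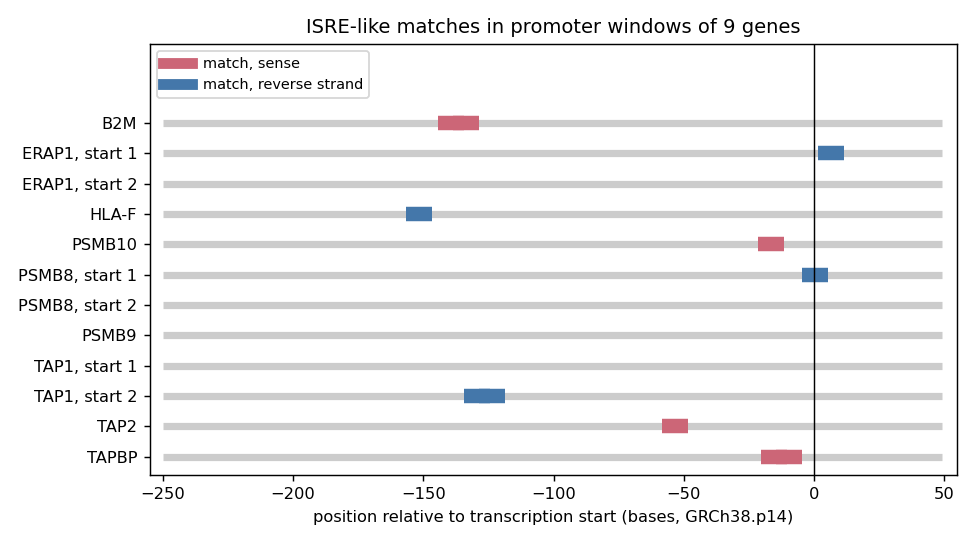
Position of ISRE-like matches (red, sense strand of the gene; blue, reverse strand) relative to the transcription start at 0, in bases, for the 12 promoter windows (grey bars) of 9 genes, with several starts of a gene numbered by coordinate. Matches lie in 1 window each of 8 genes, within 21 bases of the start in PSMB8, PSMB10, TAPBP and ERAP1, and PSMB9 has none.

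Signal intensities had been computed by the authors with MicroarraySuite and scaled to 1 target on both arrays. With the lowest and highest 2% of probe sets left out, the mean signal was 500.1 (control) and 500.2 (knock-down). DUSP5 had a signal of 628 (control) and 368 (knock-down) at its only probe set, a log2 ratio of -0.77, with an error, defined below, of 0.42. It was at least 1.5-fold lower, as were 19.1% of all probe sets with 1 symbol and a mean signal of at least 200. Of 7 genes that mark HL cells, 6 had a probe set with a mean signal of at least 200, among them TNFRSF8 (CD30) with 1724 and 3618. Of their 9 probe sets that passed this level 3 were at least 1.5-fold higher and 1 was lower, against 15.4% and 19.1% of all. The lower one belonged to FUT4 (756 and 317), whose other probe set gave 223 and 284. None of the 10 probe sets for B cell markers, 6 for T cell markers, 12 for natural killer cell markers and 7 for monocyte markers reached a mean of 200. Their signals ranged from 3.78 to 187 (control) and from 5.21 to 189 (knock-down). Summed over each list, they were 674 and 628 for B cells, 274 and 446 for T cells (of which the probe set of CD3D gave 27.3 and 189), 570 and 671 for natural killer cells and 218 and 277 for monocytes, and their part in the members' values was not tested. As this is bulk RNA, fewer cells of a type and less RNA per cell cannot be told apart.

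The plot of member signals shows 22 pairs of values. A log2 ratio is the base-2 logarithm of knock-down signal divided by control signal. Its error is given as a standard deviation (SD), computed by pooling genes that have several probe sets in the same band of mean signal. This SD was 0.27 for mean signals over 3000, 0.30 for 1000 to 3000, 0.36 for 500 to 1000, 0.42 for 200 to 500, 0.75 for 100 to 200 and 1.20 below 100. It includes differences between transcripts of a gene and leaves out the spread between cultures. A multiple of this SD is therefore no test of a difference between genes. All 10 genes had a probe set with a mean signal of at least 200, and 16 of the 22 probe sets passed this filter. Of these 16 probe sets, 3 (18.8%) exceeded control by 1.5-fold or more, against 15.4% of all 9037 probe sets with 1 symbol that passed. At least 1.5-fold lower were 2 (12.5%), against 19.1% of all. The other 11 lay between. The 3 higher ones belonged to PSMB8, PSMB10 and ERAP1, and the 2 lower ones to HLA-E and HLA-F. The median log2 ratio of the 16 was -0.07, and that of all 9037 was -0.01. On the deposited scale both shares lay near those of all probe sets, which gives no result about the members as a group. The count of lower probe sets depended on the scale, while that of higher ones was 3 on every scale tried. Of all probe sets, 16.4% were higher after quantile normalization, 10.9% after centring on the median and 6.1% relative to the bacterial hybridisation controls. Whether the members differ from all probe sets on these scales was not tested. After quantile normalization of both arrays 5 of the 16 (31.2%) were lower, against 17.2% of all, and relative to the bacterial hybridisation controls 6 (37.5%) were lower, against 32.9% of all. The probe sets added were further ones of HLA-F, B2M, TAP2 and ERAP1.

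**Figure D2:**
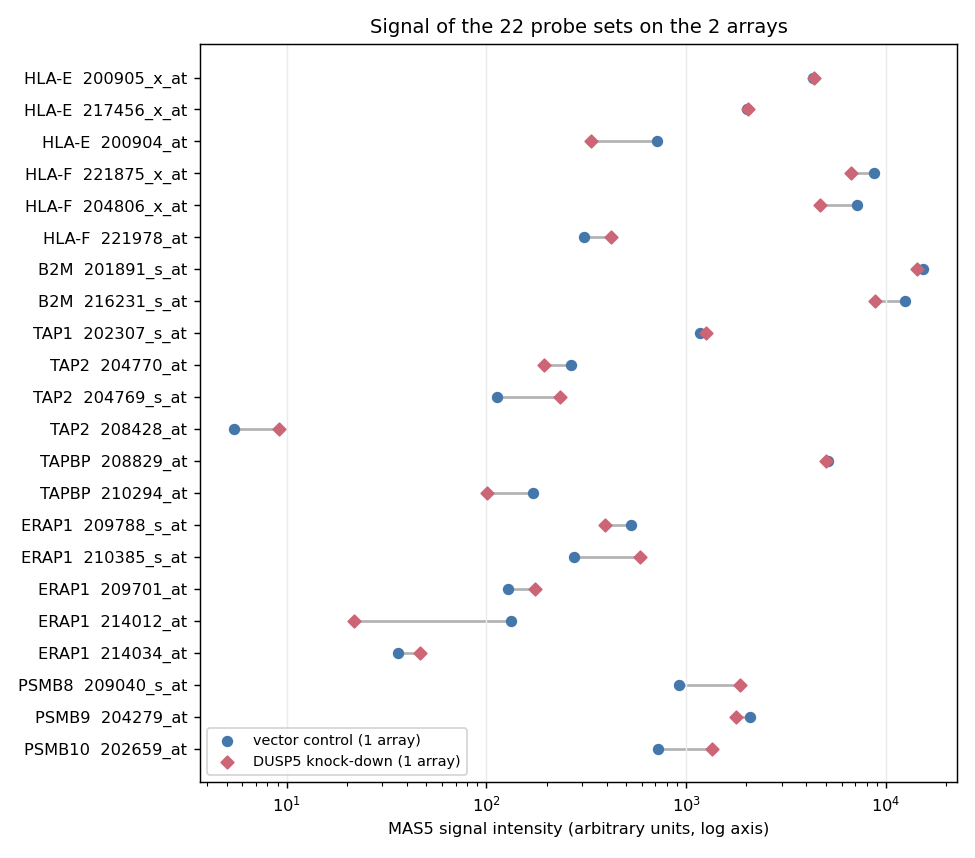
Signal intensity (log axis, arbitrary units) of each of the 22 member probe sets in control cells (blue circles) and knock-down cells (red diamonds), 1 array each, with a grey line joining the pair. The points of PSMB8 (920 and 1850) and PSMB10 (720 and 1343) lie apart, whereas those of TAP1 (1176 and 1253) and of the brighter TAPBP probe set (5139 and 5008) nearly coincide.

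HLA-E, a heavy chain that presents leader peptides of other class I molecules to natural killer cells, gave divided values. Probe sets named _at are designed for 1 transcript, _s_at for several transcripts that are usually of 1 gene, and _x_at contain probes that can match other sequences. The _at probe set 200904_at gave 715 (control) and 335 (knock-down), a log2 ratio of -1.09 (SD 0.36), which is 46.9% of control and the lowest ratio among the 16. The _x_at probe sets gave 4325 and 4379 (log2 ratio 0.02, SD 0.27) and 2025 and 2030 (log2 ratio 0.00, SD 0.30). The ratio of the _at probe set was lower than that of the brighter _x_at probe set by 1.11 (SD of this difference 0.45), while the ratios of both _x_at probe sets differed by 0.01 (SD 0.40) and changed sign on 4 and 2 of 5 alternative scales. HLA-E was therefore lower on the knock-down array at 1 of its 3 probe sets. Whether other heavy chains contribute to the _x_at signals was not tested.

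HLA-F, a heavy chain with limited surface expression, was divided the other way. Its _x_at probe sets gave 7160 (control) and 4649 (knock-down) at 204806_x_at (log2 ratio -0.62, SD 0.27), and 8744 and 6657 at 221875_x_at (log2 ratio -0.39, SD 0.27). Both were lower by more than 1 SD, the first of them 1.54-fold and the second by 1.5-fold or more on 3 of 5 alternative scales. The dimmer _at probe set 221978_at gave 306 and 418, with a log2 ratio of 0.45 (SD 0.42). Its ratio exceeded that of 204806_x_at by 1.07 (SD 0.50).

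B2M, the light chain of class I molecules, had the brightest member probe sets. They gave 15328 (control) and 14277 (knock-down), a log2 ratio of -0.10 (SD 0.27), and 12396 and 8825 (log2 ratio -0.49, SD 0.27). Both probe sets were lower after knock-down, only the second by more than 1 SD and neither by 1.5-fold. On the 5 alternative scales their ratios ranged from -0.59 to -0.10 and from -0.87 to -0.49, and the first then reached 1.5-fold on 1 of them (quantile normalization) and the second on 4. Their ratios differed by 0.39 (SD of the difference 0.38).

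For the transporter, the 2 subunits form 1 pump and had different support. TAP1 had a single probe set, with 1176 (control) and 1253 (knock-down), a log2 ratio of 0.09 (SD 0.30). TAP2 had 3 dim probe sets, of which only 204770_at passed the filter, with 265 and 194 (log2 ratio -0.45, SD 0.42). The probe set 204769_s_at went the other way, from 112 to 234 (log2 ratio 1.06, SD 0.75). The third, 208428_at, had signals of 5.46 and 9.10 (log2 ratio 0.74, SD 1.20), the dimmest of all members. No direction of TAP2 can be read from these values, and the ratio of TAP1 was smaller than its SD and turned below 0 on 2 of 5 alternative scales, to -0.21 at the lowest.

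TAPBP encodes tapasin, which bridges the transporter and the class I molecule. Its bright probe set gave 5139 (control) and 5008 (knock-down), a log2 ratio of -0.04 (SD 0.27). The other, 210294_at, was dim, with 170 and 100.1 (log2 ratio -0.77, SD 0.75).

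ERAP1, the peptidase that shortens peptides in the endoplasmic reticulum, had 5 probe sets, of which 2 passed the filter and went opposite ways. The probe set 210385_s_at gave 274 (control) and 588 (knock-down), a log2 ratio of 1.10 (SD 0.42), the highest among the 16. The probe set 209788_s_at gave 528 and 394 (log2 ratio -0.42, SD 0.42). These ratios of 1 gene differed by 1.52 (SD of the difference 0.59). The dim probe sets gave log2 ratios of 0.44 (SD 0.75) and 0.37 (SD 1.20), and 214012_at went from 132 to 21.6, a ratio of -2.61 (SD 1.20). Probe sets of ERAP1 thus spanned both extremes of the members. In all, 6 of the 10 genes had several probe sets, and in 4 of them (HLA-E, HLA-F, TAP2 and ERAP1) the ratios had both signs, although those of HLA-E above 0 were at most 0.02.

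**Figure D3:**
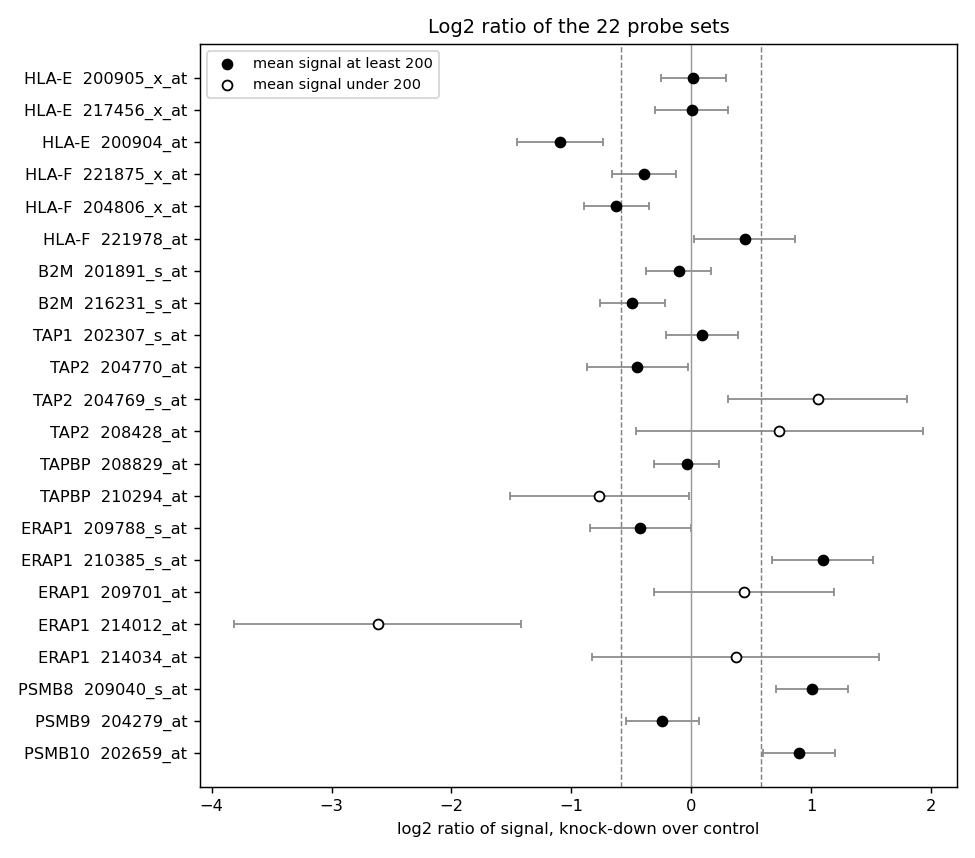
Log2 ratio of signal intensity (knock-down over control) of the 22 member probe sets, filled where the mean signal was at least 200 and open where it was lower. There is 1 array for each condition, bars are 1 SD between probe sets of a gene, and dashed lines mark a 1.5-fold difference. Among filled points PSMB8 (1.01), PSMB10 (0.90) and 1 probe set of ERAP1 (1.10) lie right of the dashed lines, and 1 each of HLA-E (-1.09) and HLA-F (-0.62) lie left of them.

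The 3 inducible proteasome subunits did not share a direction. PSMB8, the inducible subunit with chymotrypsin-like activity, gave 920 (control) and 1850 (knock-down), a log2 ratio of 1.01 (SD 0.30) or 2.01-fold. PSMB10, which takes the trypsin-like position, gave 720 and 1343, a log2 ratio of 0.90 (SD 0.30) or 1.87-fold. PSMB9, which takes the caspase-like position, gave 2089 and 1770, with a log2 ratio of -0.24 (SD 0.30). The ratio of PSMB8 exceeded that of PSMB9 by 1.25 (SD 0.43) and that of PSMB10 exceeded it by 1.14 (SD 0.43), both larger than 2 SD. PSMB8 and PSMB10 differed by 0.11 (SD 0.43). Each of these genes had 1 probe set, so that no second probe set could be compared. PSMB8 and PSMB10 stayed at least 1.5-fold higher under all 5 alternative scales, at log2 ratios of 0.71 to 1.07 and 0.60 to 0.99.

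In the gene cluster on chromosome 6, PSMB8, between TAP2 and TAP1, had a ratio 0.92 above that of TAP1 (SD 0.43). TAP1 and its head-to-head neighbour PSMB9 differed by 0.33 (SD 0.43), less than 1 SD. TAP1, with overlapping ISRE-like matches at 1 of its starts, and PSMB9, with none in its window, had log2 ratios of 0.09 and -0.24. PSMB8, with 1 match at 1 of its starts, and PSMB10 on chromosome 16, with 1 match, had 1.01 and 0.90. Whether the matches bear on these ratios was not tested.

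The constitutive subunits that the inducible ones replace all had log2 ratios above 0, as they also did on the 5 alternative scales, where the lowest was 0.13 for PSMB5 and 0.20 for PSMB7. PSMB5 gave 2514 (control) and 3400 (knock-down), a log2 ratio of 0.44 (SD 0.30), PSMB6 gave 1025 and 3020 (log2 ratio 1.56, SD 0.30), and PSMB7 gave 3287 and 4667 (log2 ratio 0.51, SD 0.27). Only PSMB6 was at least 1.5-fold higher, at log2 ratios of 1.26 to 1.58 on the alternative scales. Within each pair of inducible and constitutive subunit the ratios were compared. The ratio of PSMB8 exceeded that of PSMB5 by 0.57 (SD 0.43), and the ratio of PSMB10 exceeded that of PSMB7 by 0.39 (SD 0.40), which is less than 1 SD. The ratio of PSMB9 was below that of PSMB6 by more than 4 SD, with a difference of -1.80 (SD 0.43). The caspase-like position was thus the only one of the 3 at which the constitutive subunit had the higher ratio.

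**Figure D4:**
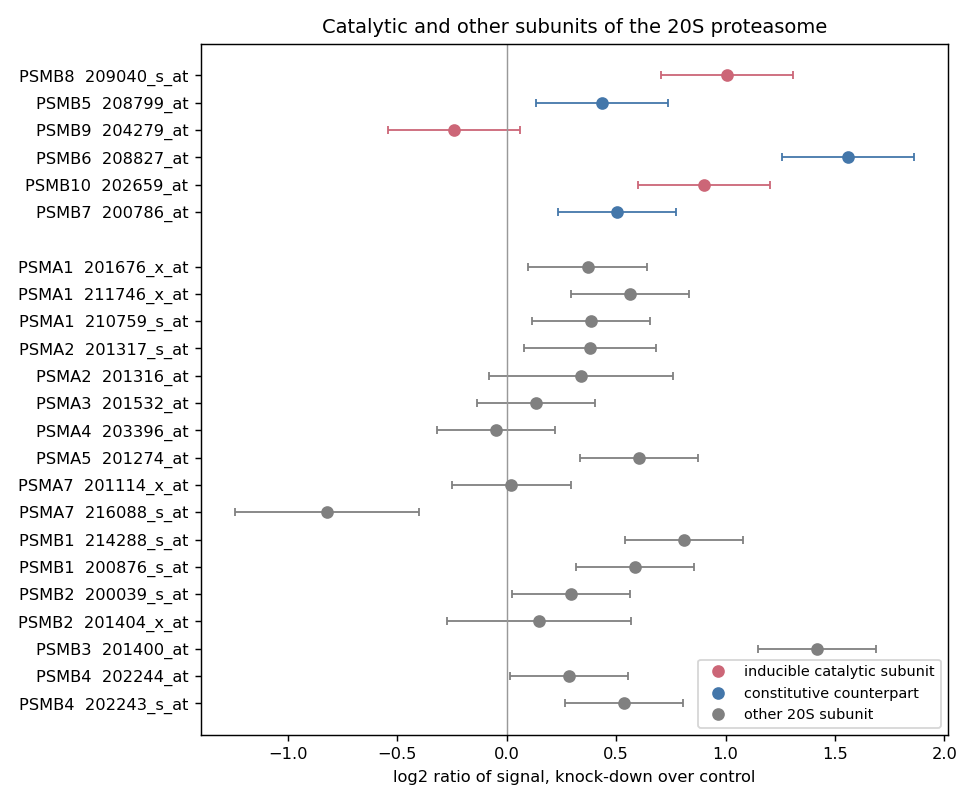
Log2 ratio of signal intensity (knock-down over control) of the inducible catalytic subunits (red), each above its constitutive counterpart (blue), and of the 17 probe sets of other 20S subunits that passed the filter (grey), with bars of 1 SD between probe sets. PSMB9 (-0.24) lies to the left of PSMB6 (1.56), and the grey points have a median of 0.37.

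The other subunits of the 20S core, the barrel that holds the catalytic sites, had log2 ratios above 0 at 15 of 17 probe sets, and at 10 of 17 relative to the hybridisation controls. Of these, which belong to 10 genes, 3 were at least 1.5-fold higher, 1 was lower and 13 lay between. Beside these and the next counts, 15.4% of all probe sets that passed were higher and 19.1% lower. The median log2 ratio of the 17 was 0.37, which became 0.19 after the lowess fit and 0.07 relative to the hybridisation controls. PSMB3 (1.42) and a probe set of PSMB1 (0.81) were highest, and probe sets of PSMA7 (-0.82) and PSMA4 (-0.05) were lowest. Of 11 probe sets for proteasome activators and assembly factors, 3 were higher and 1 lower. Their median log2 ratio of 0.21 turned to -0.09 relative to the hybridisation controls. The higher ones included PSME1 (3377 and 6304, log2 ratio 0.90), a subunit of the interferon-inducible PA28 activator, and a dim probe set of PSME3 (1.73), whereas the assembly chaperone PSMG2 had -0.99 and 1 probe set of PSME4 had -0.25. Another probe set of PSME3 had -0.06. Of 9 probe sets for cytosolic peptidases, which destroy or trim peptides before transport, 2 were higher, namely LTA4H (1.13) and THOP1 (0.87). At the other end, 1 probe set of NPEPPS was lower (-0.68), TPP2 had -0.52 at 1 of its probe sets and -0.02 at the other, and the median was -0.05, turning to 0.04 after quantile normalization.

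Chaperones that fold and load class I molecules were measured at 10 probe sets of 5 genes, with a median log2 ratio of 0.38. Of these, 3 were at least 1.5-fold higher and none lower, against 15.4% and 19.1% of all. Relative to the hybridisation controls the median was 0.08 and 1 was higher (6.1% of all), without either probe set of TAPBPL. TAPBPL, a tapasin-related peptide editor, was higher at both probe sets, with 283 (control) and 492 (knock-down) (0.79) and with 217 and 377 (0.80). CALR, a lectin chaperone of the loading complex, had ratios of 0.23 and 0.47 at bright probe sets and 1.05 at a dimmer one. CANX, which assists early folding of heavy chains, had 0.19, -0.16 and 0.30. PDIA3, the disulphide isomerase paired with tapasin, had 0.47, and HSPA5, the general chaperone of the compartment, had 0.28. ERAP2, the partner peptidase of ERAP1, had signals of 49.4 and 7.65, under the filter.

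Regulators that bind promoters of class I genes were measured at 21 probe sets of 12 genes. By 1.5-fold or more 4 were higher and 1 lower, against 15.4% and 19.1% of all. The median log2 ratio of 0.25 turned to -0.05 relative to the hybridisation controls. IRF9, the DNA-binding part of the complex that interferon directs to ISREs, gave 2336 (control) and 1263 (knock-down), a log2 ratio of -0.89 (SD 0.30), and -1.19 to -0.85 on the alternative scales. IRF1, an activator at the same element, had 0.14, IRF2, its antagonist, had -0.31, and IRF8 had 0.08. CREB1, which binds the upstream part of class I promoters, was the source of 3 of the 4 higher probe sets (0.74, 1.03 and 1.15, with 0.40 at the fourth). RFX5 of the same promoter complex had 0.65 and 0.20, RFXANK had -0.24, and RFXAP was under the filter (142 and 83.1). The subunits of the CCAAT-binding factor NFY had 0.34 and 0.13 for NFYA, -0.14 for NFYB and 0.22 to 0.53 for NFYC at probe sets that passed. The NF-kB subunits NFKB1 (0.25) and RELA (0.20 and 0.28) stayed under 1.5-fold.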

How the data were processed

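The authors ran Affymetrix Expression Console with MAS5, the MicroarraySuite algorithm, on the Cel files of 2 HG_133A arrays. The deposited values are signal intensities on a linear scale, 1 per probe set and array, set by the authors to a common target of 500. Present and absent calls were not used. Scaling to a common target fixes the trimmed mean of each array, so a change shared by most transcripts would not be seen. Log2 ratios of knock-down over control were computed without further normalization. Probe sets were named from the platform annotation, only where it gave 1 symbol, and the 68 control probe sets were left out. Where the mean of both signals reached 200, a probe set was counted as higher or lower from 1.5-fold. The error is the pooled SD of log2 ratios between probe sets of 1 gene within a band of mean signal. All probe sets of the 10 members were described. Of the further lists, every gene with a probe set was named for the constitutive subunits, loading chaperones and promoter regulators, and up to 2 at each end for the others. Members and lists were chosen with earlier results of these data known. The alternatives were quantile normalization, centring on the median, subtraction of a lowess fit (span 0.3), ratios to the hybridisation controls, 32 added to each signal, no filter, a filter of 500, a 2-fold rule, 1 mean a gene, and _at probe sets alone. The 1.5-fold count and the pooled SD were tested on simulated data with the same SD at every signal. The planted differences were far above the 1.5-fold limit, so finding them was easy. They were left out before the SD was estimated, so the SD was not tested with real differences present. The other steps were not tested in this way. Software was Python 3.11.15 with pandas 2.3.3, numpy 2.4.6, matplotlib 3.10.9, statsmodels 0.14.6 and scipy 1.17.1. Some genes of the lists have no probe set with 1 symbol and are not reported here.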

Additional observations from a re-analysis of the deposited data

How the results depend on the processing

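No paired analysis was possible because only 1 array represents either condition. The 2 probe sets at least 1.5-fold lower became 5 of 16 (31.2%) with quantile normalization, against 17.2% of all. They became 4 (25%) with the lowess fit subtracted, against 18.2%, and 6 (37.5%) relative to the hybridisation controls, against 32.9%. They became 4 of 22 with no filter, 1 of 6 with _at probe sets alone, 1 with a 2-fold rule and 0 of 10 with 1 mean a gene. The 3 higher ones became 5 with no filter and 1 with _at probe sets alone. Shares of all probe sets were not computed for the changed filters, probe set types, fold and gene means. The other 11 of 20 such counts stayed within 1.5 times. The cause was not tested beyond the fewer or more probe sets that some settings count by construction. The median log2 ratio of the members, -0.07, ranged from -0.37 to -0.02 over 9 alternatives, with -0.21 after quantile normalization, -0.19 after centring and -0.23 after the lowess fit. Its lowest value came from the hybridisation controls, whose ratio of 0.30 is subtracted by construction. Of 110 log2 ratios of single probe sets under 5 scales, 98 moved by less than their SD and 12 by more. None of the 5 differences of at least 1.5-fold changed sign. After centring and relative to the hybridisation controls, both outcomes were fixed by construction. Centring subtracts 0.12 from every ratio, less than the smallest SD of 0.27. The hybridisation controls subtract 0.30, which exceeds the SD only for mean signals over 3000. Neither shift can reverse a 1.5-fold difference. A constant added to each signal cannot change a sign, so only quantile normalization and the lowess fit tested it. The median of all 22215 non-control probe sets, without a filter, was 0.12 as deposited, 0.05 after quantile normalization and -0.18 relative to the hybridisation controls. For the 9037 probe sets with 1 symbol that passed the filter, these medians were -0.01, 0.02 and -0.31. Low signal over background limits TAP2, the dim probe sets of ERAP1 and TAPBP, and ERAP2.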

Other observations

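Other heavy chains with a class I fold were measured at 23 probe sets of 8 genes. Of these 1 was at least 1.5-fold higher and 2 were lower, against 15.4% and 19.1% of all. The median log2 ratio of 0.07 turned below 0 on 4 of 5 alternative scales. CD1A, which presents lipids, gave 178 (control) and 270 (knock-down) (0.60). MR1, which presents vitamin metabolites, was lower at 2 of 3 probe sets that passed (-1.08 and -0.62) and had 0.05 at the other. HFE, an iron regulator, had a highest ratio of 0.56 among probe sets that passed, and HLA-G had -0.23 to 0.29 at its 4 probe sets.

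Interferon receptors and their kinases were measured at 7 probe sets, with a median of 0.08 that turned below 0 on 2 of 5 alternative scales. Of these, 2 were at least 1.5-fold lower and none was higher, against 19.1% and 15.4% of all. Both lower ones belonged to IFNGR1, the ligand-binding chain of the interferon gamma receptor. It gave 3504 (control) and 872 (knock-down), a log2 ratio of -2.01 (SD 0.30), and 2712 and 1120 (-1.28, SD 0.30). The signalling chain IFNGR2 had 0.35, the kinase TYK2 had 0.50 and the kinase JAK1 had -0.39. Whether the ratio of IFNGR1 bears on the members was not tested.

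Of 14 probe sets of 9 other genes around TAP and PSMB8 on chromosome 6, 1 was higher and 1 was lower, against 15.4% and 19.1% of all. The median log2 ratio of 0.01 turned below 0 on 2 of 5 alternative scales. DAXX, a histone chaperone, had 1.39 and 0.50, and HLA-DMA, a chaperone of class II loading, had 0.36. BRD2, a chromatin reader, had -0.83, -0.42 and -0.04, and RING1 had -0.23 and 0.20.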
